A study of Mus musculus with 4 samples.

Results

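The dystrophin-sarcoglycan complex and its dystrobrevins were followed in the adult mouse heart through 8 genes, *Dmd*, *Utrn*, *Dtna*, *Dtnb*, *Dag1*, *Sgca*, *Sgcb* and *Sgcd*, of the 55401 gene rows of the expression table. Each member was found by its symbol. The members were chosen by measured values, their TPM and log2 fold changes between the genotypes in these same libraries, so their levels and fold changes are given as a description and without p-values. Gene expression was measured as TPM, transcript abundances as parts of a fixed library total, which are scaled for transcript length and allow levels of different genes to be compared within a library. The hearts came from C57BL/6N mice aged 8 weeks, 2 libraries from wild-type mice and 2 from heterozygous mice carrying 1 *Ctcf* allele with the CTCF-R567W change, made with CRISPR/Cas9. *Ctcf* encodes a zinc finger protein that binds DNA and organises chromatin loops, and the comparison asked how gene expression in the adult heart differs with 1 mutant allele. Both groups are whole heart tissue, in which fewer cells of a type and less RNA per cell cannot be told apart.

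In striated muscle, dystrophin joins the actin cytoskeleton under the membrane to a complex that spans the membrane and holds the extracellular matrix. The complex is built of dystroglycan, which binds laminin through sugar chains on its alpha subunit, of the sarcoglycans and sarcospan, which sit beside it in the membrane, and of the dystrobrevins and syntrophins, which bind dystrophin from the inside. It is known for protecting the muscle membrane during contraction, and loss of dystrophin or of a sarcoglycan causes muscular dystrophy, often with cardiomyopathy.

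The 4 libraries differed in composition. Transcripts of the mitochondrial genome took 64.7% and 61.1% of the TPM in the wild-type libraries and 68.6% and 62.6% in the heterozygous libraries. Each library was therefore divided by a median-of-ratios factor, 1.08 and 1.27 for wild type and 0.821 and 0.910 for heterozygous, and the result is called scaled TPM. With this scaling, log2 fold changes over the 10036 tested genes had a median of -0.011, against -0.35 for the TPM as deposited. When only the mitochondrial genes were removed and the TPM rescaled, the median was -0.31. With genes over 1% of the TPM in any library removed as well, the median was 0.057. *Ctcf* itself was at 6.15 and 5.99 scaled TPM in the wild-type libraries and at 7.48 and 5.71 in the heterozygous libraries, and the groups overlapped, but these values do not separate the mutant allele from the normal one. *Xist* was at no more than 0.03 TPM and the Y-linked *Ddx3y* at 12.7 TPM or more in every library, so the X-linked *Dmd* was not compared between libraries of different sex. Of the defining markers of the heart, all 8 cardiomyocyte genes were expressed, and the skeletal myosins *Myh1*, *Myh2* and *Myh4* were listed at 0 in all 4 libraries.

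Each gene lies on a chromosome of its own, except for *Sgca* and *Sgcd*. In mm10, *Dmd* spans 2257.27 kb on the plus strand at chrX:82948870-85206141, and *Sgcd* spans 1092.72 kb on the minus strand at chr11:46896253-47988969. *Utrn* lies at chr10:12382188-12869365, *Dtnb* at chr12:3572381-3781796, *Dag1* at chr9:108204634-108263958, *Sgca* at chr11:94962791-94976327 and *Sgcb* at chr5:73632749-73647790. Exons of other annotated genes touched only those of *Dtna*, where 90 bases were shared with *Gm47898* on the opposite strand, a gene listed at 0 here. The annotation gives 3 coding transcripts for *Dmd* and 11 for *Dtnb*, and the values sum over all transcripts of a gene.

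The DNA before the start sites of 4 members is shown. *Sgca* and *Sgcb* were lower without overlap, as was *Dag1*, which is not shown. *Dtnb* is the member with the largest fold change, and *Dmd* is the gene that names the complex. Each is the strand of the gene, 5′ to 3′, ending just before the start site of RefSeq on GRCm38.p6, shortened at the gene model for *Sgcb*, and the last 10 bases for *Dtnb* lie inside the GENCODE model. Capitals mark matches to a TATA box (TATAAA), a GC box (GGGCGG), a MEF2 site or a CArG box, the sequence bound by serum response factor, on either strand.
Dmd, chrX:82948620-82948869, plus strand: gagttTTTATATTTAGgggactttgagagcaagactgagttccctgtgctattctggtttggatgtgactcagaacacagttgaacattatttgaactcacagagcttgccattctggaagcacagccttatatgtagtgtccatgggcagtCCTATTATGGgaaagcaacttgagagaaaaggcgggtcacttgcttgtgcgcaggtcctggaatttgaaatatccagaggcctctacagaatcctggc
Dtnb, chr12:3572141-3572390, plus strand: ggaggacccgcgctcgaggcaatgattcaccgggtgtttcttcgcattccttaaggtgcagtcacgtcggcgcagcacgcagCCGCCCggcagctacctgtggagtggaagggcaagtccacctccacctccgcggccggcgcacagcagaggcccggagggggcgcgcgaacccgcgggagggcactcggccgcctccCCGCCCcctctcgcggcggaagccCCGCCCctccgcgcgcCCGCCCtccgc
Sgca, chr11:94976328-94976577, minus strand: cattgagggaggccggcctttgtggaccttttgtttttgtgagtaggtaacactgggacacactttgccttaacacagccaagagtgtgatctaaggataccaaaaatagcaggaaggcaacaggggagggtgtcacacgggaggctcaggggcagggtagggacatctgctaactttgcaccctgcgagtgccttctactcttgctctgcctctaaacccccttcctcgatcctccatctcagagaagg
Sgcb, chr5:73647791-73647987, minus strand: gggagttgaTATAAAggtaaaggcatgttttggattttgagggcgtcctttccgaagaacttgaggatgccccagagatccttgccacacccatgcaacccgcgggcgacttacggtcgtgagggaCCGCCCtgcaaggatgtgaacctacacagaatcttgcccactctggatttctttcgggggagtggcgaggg

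The *Dmd* window held a MEF2 site from base 7, which overlaps a TATA box on the opposite strand from base 6, and a CArG box from base 153. The *Dtnb* window held 4 GC boxes, from bases 83, 200, 224 and 240, and 74.0% of its bases were G or C, against a median of 52.4% over all promoters. The *Sgcb* window held a TATA box from base 10 and a GC box from base 127, and the *Sgca* window held none of the 4 motifs. *Dmd* and *Dtnb* have further RefSeq start sites inside their gene models, whose windows are not shown. A window of *Dmd* at chrX:85048045-85048294 held 3 GC boxes, 60.0% G or C, and no MEF2 site or CArG box. Other windows of *Dtnb* held 5, 2 and 0 GC boxes. Of 32851 promoter windows of 250 bases searched on both strands, a GC box was present in 32.7%, a TATA box in 12.4%, a MEF2 site in 2.92% and a CArG box in 1.47%. The core consensus of CTCF was present in 0.508% of all windows and in none of the 12 windows that matched 7 of the members. A match is a description of the letters and not evidence of binding.

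Levels of the members differed widely within the hearts. By mean TPM over the 4 libraries the order was *Sgca*, *Sgcb*, *Dtna*, *Dmd*, *Dag1*, *Utrn*, *Dtnb* and *Sgcd*. *Sgca*, at 27.6 TPM, stood at percentile 90.8 of the tested genes, and *Sgcd*, at 1.02 TPM, at percentile 0.717, just above the minimum of 1 TPM for testing. *Dtna*, *Dmd*, *Dag1* and *Utrn* lay close together, between 5.44 and 4.30 TPM, and their ranges over the libraries overlapped.

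**Figure D1:**
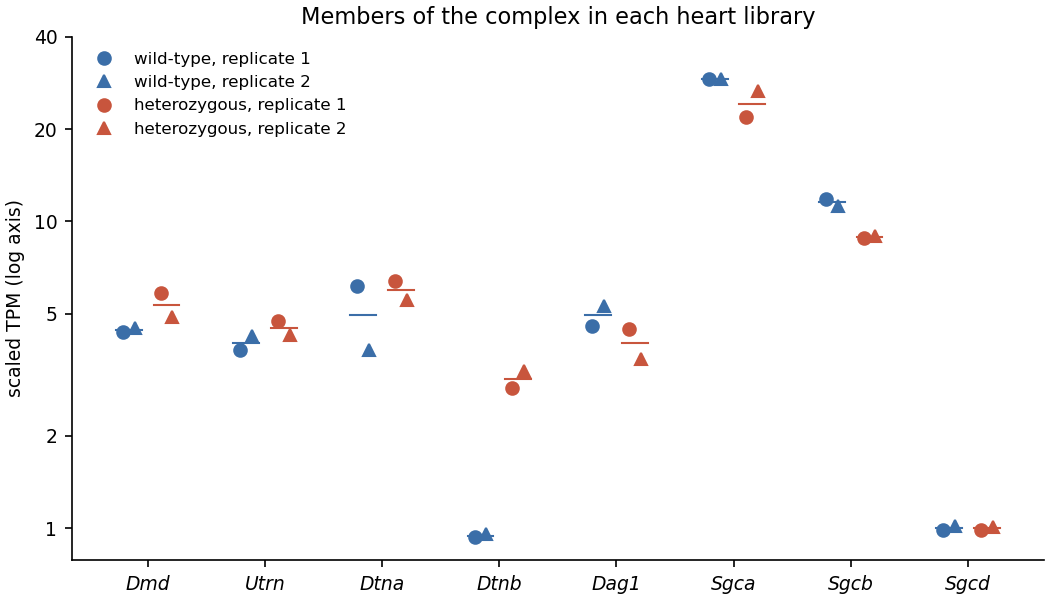
Scaled TPM of the 8 members on a log axis, with 1 point for each library (circles for replicate 1, triangles for replicate 2) and a line at the mean of each genotype. *Dtnb* rises from 0.944 to 3.06 scaled TPM between the genotype means, whereas *Sgca* and *Sgcb* lie lower in the heterozygous libraries and *Sgcd* is at about the same level in both.

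Among the proteins on the inner side of the membrane, *Dtnb* had the largest difference of all members. *Dtnb* encodes beta-dystrobrevin, a relative of dystrophin that is best known from brain, kidney and other tissues outside muscle. It was at 0.933 and 0.955 scaled TPM in the wild-type libraries and at 2.86 and 3.26 in the heterozygous libraries. Both heterozygous values were above both wild-type values, and the ratio of the group means was 3.24. Its log2 fold change on the log2(scaled TPM + 1) scale, which understates changes of genes at low levels, was 1.06 (SE 0.14, n = 2 against 2), the 41st highest of the 10036 tested genes. As deposited, its TPM were 1.01 and 1.21 against 2.35 and 2.97, a ratio of 2.40, so the groups did not overlap in either scale.

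*Dtna*, at chr18:23415135-23659715, encodes alpha-dystrobrevin, the main dystrobrevin of striated muscle, and was at 6.13 and 3.80 scaled TPM in wild type and at 6.38 and 5.54 in heterozygous libraries. The wild-type libraries lay further apart than the genotype means, and the groups overlapped. Its log2 fold change was 0.25 (SE 0.21), and leaving out the lower wild-type library turned it to -0.039. *Dtnb* made up 13.2% and 20.1% of the summed TPM of both dystrobrevins in wild type and 31.0% and 37.1% in heterozygous libraries. The ratio of *Dtnb* to *Dtna* within a library, which does not depend on how libraries are scaled, was 0.152 and 0.251 in wild type and 0.448 and 0.589 in heterozygous hearts. *Dtna* nevertheless remained the more abundant dystrobrevin in all 4 libraries.

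*Dmd* encodes dystrophin. It was at 4.36 and 4.47 scaled TPM in the wild-type libraries and at 5.82 and 4.87 in the heterozygous libraries, without overlap. Its log2 fold change was 0.22 (SE 0.15). As deposited, the TPM were 4.72 and 5.67 against 4.78 and 4.43, the groups overlapped and the log2 fold change was -0.14, so that the direction of *Dmd* depended on the scaling.

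*Utrn* encodes utrophin, a homologue that can take the place of dystrophin at the membrane. Its levels were 3.80 and 4.21 scaled TPM in wild type and 4.73 and 4.26 in heterozygous libraries, with a log2 fold change of 0.13 (SE 0.14). The higher wild-type and the lower heterozygous value were almost the same. As deposited, both heterozygous libraries were at 3.88 TPM, below the wild-type values of 4.11 and 5.34, and the direction was the opposite one. The ratio of *Utrn* to *Dmd* within a library was 0.871 and 0.942 in wild type and 0.812 and 0.876 in heterozygous hearts, and the groups overlapped.

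Of the members that span the membrane or bind the matrix, 3 were lower in heterozygous hearts without overlap, as were 24.0% of all tested genes. *Sgcb*, which encodes beta-sarcoglycan, a core subunit of the sarcoglycan complex, was at 11.8 and 11.3 scaled TPM in wild type and at 8.84 and 8.97 in heterozygous libraries. The replicates lay close together, the ratio of the group means was 0.772 and the log2 fold change was -0.34 (SE 0.14). *Sgca*, which encodes alpha-sarcoglycan, was at 29.0 and 29.2 scaled TPM in wild type and at 21.8 and 26.6 in heterozygous libraries. The gap between the heterozygous libraries was wider than the gap from the higher of them to wild type, and the log2 fold change was -0.26 (SE 0.17).

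*Dag1* encodes both dystroglycan subunits. It was at 4.57 and 5.30 scaled TPM in wild type and at 4.47 and 3.56 in heterozygous libraries, with a log2 fold change of -0.25 (SE 0.16). The gap between the groups was small, since heterozygous replicate 1 lay just under wild-type replicate 1. As deposited, *Dag1* was at 4.95 and 6.72 TPM in wild type and at 3.67 and 3.24 in heterozygous libraries.

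*Sgcd*, which encodes delta-sarcoglycan, was at 0.988 and 1.02 scaled TPM in wild type and at 0.987 and 1.01 in heterozygous libraries. The groups overlapped, and the log2 fold change was -0.0032 (SE 0.13). As a share of the summed TPM of *Sgca*, *Sgcb* and *Sgcd* it was 2.36% and 2.45% in wild type and 3.12% and 2.76% in heterozygous libraries. *Sgca* held 69.4% and 70.4% of that sum in wild type and 68.9% and 72.7% in heterozygous libraries, which overlapped, as did the ratio of *Sgca* to *Sgcb*, at 2.46 and 2.59 against 2.47 and 2.96.

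Ratios to *Dmd* within a library were compared to remove the scaling. The ratio of *Dag1* to *Dmd* was 1.05 and 1.19 in wild type and 0.768 and 0.731 in heterozygous hearts, 1.49-fold lower without overlap. The following ratios were chosen after their values were seen. *Sgca* to *Dmd* was 6.66 and 6.53 against 3.75 and 5.46, and *Sgcb* to *Dmd* was 2.71 and 2.51 against 1.52 and 1.84. *Sgcd* to *Dmd* was 0.227 and 0.228 against 0.169 and 0.208, also lower without overlap, although the scaled level of *Sgcd* overlapped between the genotypes, so these ratios move with *Dmd* as well as with the other gene. *Dtnb* to *Dmd* was 0.214 and 0.213 against 0.492 and 0.670, which is 2.72-fold higher. Relative to *Dmd* RNA, the RNA of *Sgca*, *Sgcb*, *Sgcd* and *Dag1* was thus lower, and that of *Dtnb* higher, in both heterozygous libraries. The ratios of *Utrn* and *Dtna* to *Dmd* overlapped between the genotypes. All these ratios share *Dmd* as denominator and are not separate observations, and the same ratios were not computed over all genes.

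**Figure D2:**
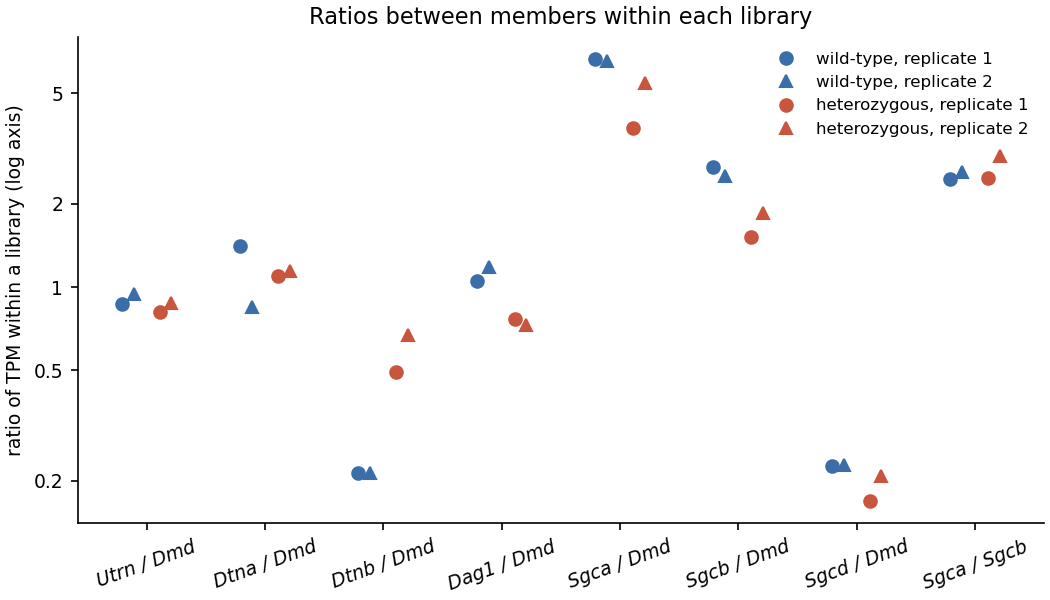
Ratios of TPM between members within each library on a log axis, with circles for replicate 1 and triangles for replicate 2. The ratio of *Dtnb* to *Dmd* is higher and those of *Dag1*, *Sgca*, *Sgcb* and *Sgcd* to *Dmd* are lower in both heterozygous libraries, and *Utrn* to *Dmd*, *Dtna* to *Dmd* and *Sgca* to *Sgcb* overlap.

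No member passed the test over all genes, an adjusted p under 0.05 in limma with a fold change over 1.5, and the same test called 0.0299% of all genes lower and 0.0% higher. The 3 genes called lower were *Gm8186*, *Gm14325* and the second of the gene models named *Zc3h11a*, which are no members and are named after their values were seen. At an unadjusted p under 0.05, 1 of the 8 members passed, *Dtnb*, against 12.3% of all tested genes, 6.08% lower and 6.22% higher. Both heterozygous libraries were under both wild-type libraries for 3 members, *Sgca*, *Sgcb* and *Dag1*, against 24.0% of all genes. They were above for 3 members, *Dmd*, *Utrn* and *Dtnb*, against 23.0% of all genes. The median log2 fold change of the members was 0.066, with 4 members below 0 and 4 above. Since the members were chosen with this contrast known, nothing is read from these counts.

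The choice of scaling moved the members. With the TPM as deposited, *Dmd*, *Utrn* and *Dtna* had log2 fold changes below 0, and those of *Sgca*, *Sgcb* and *Dag1* were -0.69, -0.74 and -0.61. With mitochondrial genes removed, *Dtnb* was at 1.13, above its value of 1.06, while the other 7 members were lower than with median-of-ratios scaling. That removal also raises all remaining TPM against the fixed pseudocount of 1, so for a low gene such as *Dtnb* it does not isolate the scaling. Taken relative to the median of all genes, over every setting tried in which a gene was tested, *Dtnb* lay between 0.44 and 1.61, *Dmd* between 0.13 and 0.34 and *Utrn* between 0.076 and 0.21. The ends of the *Dtnb* range came from pseudocounts of 5 and 0.1 and not from a scaling. On the same measure *Sgca* lay between -0.40 and -0.11, *Sgcb* between -0.39 and -0.24 and *Dag1* between -0.37 and -0.11.

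**Figure D3:**
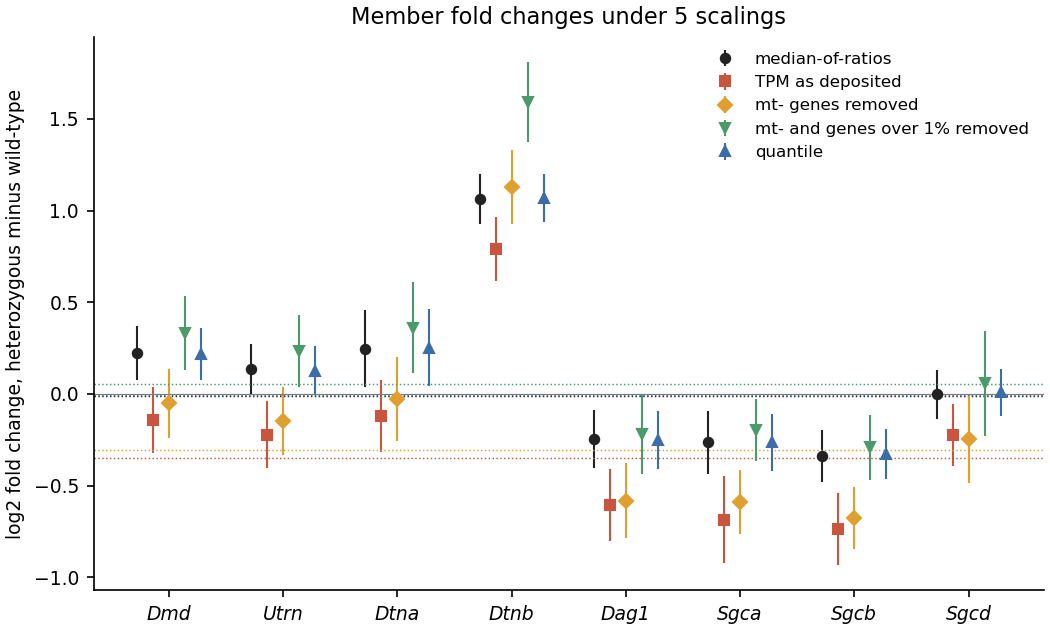
Log2 fold change of each member, heterozygous minus wild type, with its standard error, under 5 ways of scaling the libraries. Dotted lines mark the median of all tested genes under each scaling. *Dtnb* is above 0 and *Sgca*, *Sgcb* and *Dag1* are below 0 under all 5, while *Dmd*, *Utrn* and *Dtna* fall below 0 with the TPM as deposited and with mitochondrial genes removed.

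Markers of the cell types of the heart were summed beside these values. The 8 cardiomyocyte markers summed to between 23242 and 25013 scaled TPM in wild type and to 19979 and 23785 in heterozygous libraries. Without overlap, 4 of the 8 were lower and 0 higher, against 24.0% and 23.0% of all genes. The median log2 fold change of these markers was -0.29, but the 8 were uneven, with *Pln*, which encodes phospholamban, at -0.48 and the myosin gene *Myh6* at 0.070. Heterozygous replicate 1 had the lowest cardiomyocyte sum, the lowest *Sgca* and the highest mitochondrial share, whereas *Dag1* was lowest in heterozygous replicate 2. *Sgcb* was almost the same in both, at 8.84 in heterozygous replicate 1 and 8.97 in heterozygous replicate 2. Endothelial markers summed to 293 and 291 in wild type and to 323 and 372 in heterozygous libraries. *Egfl7* alone made up 198 and 192 of these sums in wild type and 234 and 275 in heterozygous libraries. The median log2 fold change of the 8 endothelial markers was -0.038. Of these, 2 were lower and 2 higher without overlap, against 24.0% and 23.0% of all genes. The 7 fibroblast markers summed to 58.1 and 80.9 against 54.4 and 57.9, and the smooth muscle and pericyte markers to 77.2 and 69.4 against 54.3 and 70.5. Immune markers summed to 34.9 and 36.3 against 25.2 and 36.7. Skeletal muscle markers stayed between 4.17 and 5.16, nerve and Schwann cell markers between 2.56 and 4.40, and adipocyte markers under 0.67. The part of cell composition in the differences of the members was not tested.

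Other partners of the complex were read from a list of 16 genes, of which 8 reached the level for testing. None passed the test, 7 had a log2 fold change below 0, and the median was -0.18. Both heterozygous libraries were under both wild-type libraries for 5 of the 8 and above for 1, where all genes gave 24.0% and 23.0%. *Sspn*, which encodes sarcospan, was at 5.82 and 7.89 against 4.40 and 5.37 scaled TPM (log2 fold change -0.41, limma adjusted p = 0.414), without overlap. The partners with the highest levels, *Ank2*, an ankyrin that anchors membrane proteins, and *Dtnbp1*, dysbindin, which binds dystrobrevins, overlapped between the genotypes with log2 fold changes of -0.0022 and -0.12. Zeta-sarcoglycan, *Sgcz*, was listed at 0 in every library. The untested *Sntb1*, *Sntb2*, *Sntg1*, *Sntg2*, *Drp2*, *Nos1* and *Aqp4* were below a mean of 1 TPM.

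The genes that build the laminin-binding sugar of alpha-dystroglycan formed a list of 18, of which 16 were tested. None passed the test. At an unadjusted p under 0.05, 3 were lower and 1 higher, against 6.08% and 6.22% of all genes, 11 of the 16 had a log2 fold change below 0, and the median was -0.25. The genotypes did not overlap for 9 of the 16 that were lower and 1 that was higher, against the same 24.0% and 23.0% of all genes. *B4gat1*, a glucuronyltransferase that primes the laminin-binding chain, had the lowest value, at 2.81 and 4.15 scaled TPM in wild type and 0.292 and 0.978 in heterozygous libraries. Its log2 fold change was -1.47 (SE 0.24, limma adjusted p = 0.197). This value is uncertain, since 85.3% of its exonic bases are shared on the same strand with *Gm50388*, which was at 0.453 and 0.710 in wild type and at 1.16 and 1.01 in heterozygous libraries. With both models summed, an alternative chosen after the values were seen, the log2 fold change was -0.89 (SE 0.20, limma adjusted p = 0.279).

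*Dolk*, the kinase that makes the dolichol phosphate used as a sugar carrier, was at 2.12 and 2.32 scaled TPM in wild type and at 1.21 and 1.32 in heterozygous libraries (log2 fold change -0.51, limma adjusted p = 0.322). *Rxylt1*, a xylosyltransferase of the same chain, had a log2 fold change of -0.37 (limma adjusted p = 0.393). *Dpm3* and *Dpm2*, subunits of the enzyme that makes dolichol phosphate mannose, had the highest levels and overlapped between the genotypes.

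The extracellular ligands and the laminin-binding integrin were all tested, 13 of 13, with a median of -0.037. None passed the test. At an unadjusted p under 0.05, 1 gene was lower and 1 higher, against 6.08% and 6.22% of all genes. Without overlap, 3 genes were lower and 2 higher, against 24.0% and 23.0% of all genes. *Agrn*, which encodes agrin, a proteoglycan that binds alpha-dystroglycan, was at 56.3 and 54.5 scaled TPM in wild type and at 80.3 and 74.9 in heterozygous libraries (log2 fold change 0.48, limma adjusted p = 0.366). *Itgb1*, the beta subunit of the integrin, had the lowest log2 fold change, -0.46 (limma adjusted p = 0.404), and *Nid2*, a basement membrane linker, was at 0.37 (limma adjusted p = 0.430). The most abundant ligands, perlecan (*Hspg2*) and the laminin chain *Lamb2*, were at 0.14 and -0.037 with overlapping groups.

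Of 18 genes of the costamere, the structure that couples the sarcomere to the membrane, and of membrane repair, 15 were tested, with a median of -0.086. None passed the test. At an unadjusted p under 0.05, 2 were lower and 0 higher, against 6.08% and 6.22% of all genes. Without overlap, 5 were lower and 2 higher, against 24.0% and 23.0% of all genes. *Cavin4*, a caveolar protein of muscle, was at 6.86 and 7.14 scaled TPM in wild type and at 4.67 in both heterozygous libraries (log2 fold change -0.50, limma adjusted p = 0.322). *Vcl*, vinculin, was at 6.53 and 6.38 against 4.81 and 3.16 (-0.60, limma adjusted p = 0.340), with 25.5% of its exonic bases shared with *Ap3m1* on the opposite strand. *Ilk*, integrin-linked kinase, had a log2 fold change of 0.39 (limma adjusted p = 0.416), but 76.7% of its exonic bases overlap *Taf10* on the opposite strand, and whether reads were assigned by strand is not given in the sources used here. *Des*, the muscle intermediate filament desmin and the most abundant of the list, overlapped between the genotypes at -0.28. Over all 4 lists, 35 of the 52 tested genes had a log2 fold change below 0 and the median was -0.13, against 5177 of 10036 and -0.011 for all genes. Without overlap, 22 of the 52 were lower and 6 higher, against 24.0% and 23.0% of all genes. The lists were chosen with earlier results of these data known, so nothing is read from the list counts and medians.

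**Figure D4:**
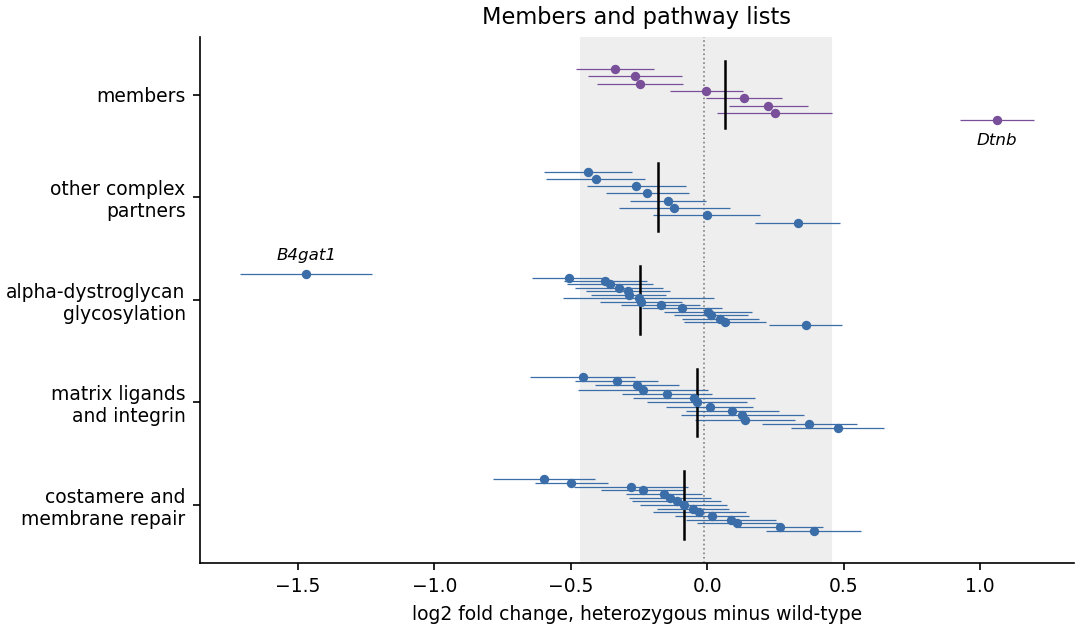
Log2 fold change, heterozygous minus wild type, of each tested gene with its standard error, for the members and for the 4 lists of related genes. Black bars mark the list medians, the grey band spans the 5th to the 95th percentile of all tested genes (-0.46 to 0.45) and the dotted line is their median. *Dtnb* and *B4gat1* lie farthest outside the band.

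Neighbouring genes were listed to describe the surroundings of the members, a choice made after the values were seen. Within 500 kb of *Dtnb*, 6 other genes were tested, and their log2 fold changes lay between -0.23 and 0.087 with none called. The nearest, *Dnmt3a*, which encodes a DNA methyltransferase, is 24.2 kb away and was at 8.06 and 7.53 scaled TPM in wild type and at 9.05 and 6.61 in heterozygous libraries. Around *Sgcb*, 4 genes lay between -0.19 and 0.10. Around *Sgca*, 14 genes lay between -0.43 and 0.48, of which 7 were above and 7 below 0, and around *Dag1* 32 genes lay between -0.64 and 0.60.

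The genes whose values over the 4 libraries were most like those of *Dmd* were sought among 2573 genes with a mean of at least 10 TPM, by the Euclidean distance of their centred log2 values. *Plcd1* was the nearest at a distance of 0.019, followed by *Tdp2*, *Maea*, *Ripor1* and *Asph* at up to 0.056. *Plcd1* was at 15.7 and 16.3 scaled TPM in wild type and at 20.6 and 17.3 in heterozygous libraries, so that it, like *Dmd*, was highest in heterozygous replicate 1. With 4 libraries and this many candidates, such distances describe these libraries only.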

How the data were processed

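Whole-heart polyA RNA of 4 libraries was analysed, grouped by the genotype in the labels. The authors trimmed reads with Trim Galore, aligned them to mm10 with STAR, quantified genes with RSEM and deposited TPM values per gene, rounded to 2 decimals. The annotation release is not given in the sources used here. The authors tested counts with DESeq2; the deposited TPM permit no count model, keep no depth, and leave the counting error of each value unknown. Library steps are described for embryonic hearts in the methods.

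The scaling factor of each library was the median ratio to the geometric mean over genes present in all libraries, and fits used log2(scaled TPM + 1). Genes averaging 1 TPM or more were tested with limma (3.58.1, lmFit and eBayes with trend, two-sided) in R (4.3.3), with Benjamini-Hochberg adjustment over all 10036 genes. Calls required more than a 1.5-fold difference at an adjusted p below 0.05. The prior had 4.76 degrees of freedom. With 2 against 2 libraries an exact permutation test of 1 gene cannot go below p = 0.333. The labels number the libraries as replicates without naming the mice, so p-values measure the spread between these libraries. Pairwise correlations of log2 values were 0.985 to 0.992, and no library was a copy of another. The fit was tested on simulated data. Tables were made with Python (3.11.15) and pandas (2.3.3).

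Gene positions are from GENCODE M21, with identifiers matched without version for 55141 genes, and promoter sequences from RefSeq. The members, gene lists and markers were chosen with earlier results of these data known. The named genes are all members and, of each list, the 3 with the largest and the 2 with the highest level, plus partners listed at 0. Some genes that this rule names are not reported here. Alternatives covered the pseudocount, the filter, the scaling, the replicate block, the variance prior, summed gene models, thresholds and each library left out.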

Additional observations from a re-analysis of the deposited data

How the results depend on the processing

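No member was called in any of the 17 alternatives, and *Dtnb* stayed higher and *Sgca*, *Sgcb* and *Dag1* lower in each one in which they were tested. The 3 genes called lower became 0 without a filter, 11 with the TPM as deposited, 12 with mitochondrial genes removed and 1 with gene models of one symbol summed, and 3 to 25 with a library left out (17 without wild-type replicate 1 and 25 without wild-type replicate 2). The 0 genes called higher (624 at an unadjusted p under 0.05) became 2 with the TPM as deposited, with mitochondrial genes removed, with these and genes over 1% removed, and with the robust prior, and 4 to 12 with a library left out. The replicate numbers in the labels do not mark a shared animal, and same-numbered deviations correlated at 0.101 in the only pair. With the replicate block, 8 genes were called lower and 3 higher, and 1 gene of the lists, *B4gat1*, was called, as also without wild-type replicate 1 (0 to 1 over the libraries left out). The member median of 0.066 became -0.26 at a mean TPM of at least 5, where 3 members were tested, -0.22 with the TPM as deposited and -0.20 with mitochondrial genes removed, and -0.039 to 0.089 with a library left out, the lowest without wild-type replicate 2. With the TPM as deposited, the heterozygous to wild-type ratio of marker sums was 0.673 for cardiomyocyte (0.907 scaled), 0.881 for endothelial (1.19), 0.589 for fibroblast (0.808), 0.634 for smooth muscle (0.851), 0.646 for immune (0.870) and 0.812 for skeletal muscle markers (1.10). Where no cause is given by the construction, the cause was not tested. A left-out library leaves 1 in its group, whose spread is then taken from the other group. Depth is unknown, so the precision of low values such as those of *Sgcd* and *Dtnb* is not known either.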
